A study of Arabidopsis thaliana with 3 samples.

Results

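Binding of PISTILLATA (PI) and APETALA3 (AP3), MADS-domain proteins of the flower, was examined at 10 SQUAMOSA promoter-binding-like (SPL) genes of Arabidopsis thaliana. These genes (SPL2, SPL3, SPL4, SPL5, SPL6, SPL8, SPL9, SPL10, SPL11 and SPL15) were given as a list of loci, drawn up with earlier results of these data known, from a list of 17 SPL loci in the genome. All 10 were looked up in both of the authors' target tables, which together list 3132 genes, and the 7 SPL loci left out are in neither table. Of the 10 genes, 7 were listed for PI, 5 of those 7 also for AP3, and 3 for neither factor.

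SPL proteins are plant transcription factors that bind DNA through the SBP domain, and the family takes its name from proteins that bind the promoter of the snapdragon floral gene SQUAMOSA. In Arabidopsis they promote the change from juvenile to adult growth, flowering and the identity of the floral meristem, and some act in fertility and organ shape. The microRNA miR156 and its relative miR157 pair with most SPL transcripts and lower their output, so falling miR156 lets SPL activity rise as a plant ages. PI and AP3 are the B-class proteins that together specify petals and stamens.

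The assay was chromatin immunoprecipitation with sequencing (ChIP-seq), in which an anti-GFP antibody recovers the DNA bound by a protein fused to green fluorescent protein. The groups were PI-GFP AP1-GR ap1 cal plants, AP3-GFP AP1-GR ap1 cal plants and AP1-GR ap1 cal plants with no GFP fusion as the negative control, with 1 library each. All were of the Ler background and carried 35S:AP1-GR with the ap1-1 and cal-1 mutations. In this system the broadly active 35S promoter drives an AP1 fusion that dexamethasone switches on, which starts flower formation in many meristems at once. Plants of about 4 weeks, grown at 20 degrees Celsius, received 10 µM dexamethasone, and flowers were collected 4 days afterwards, at about stage 4 to 5. The promoters that drive the GFP fusions are not stated in the labels. The tissue was the whole flower, so the cell type in which a gene was bound is not resolved. Peak and target tables of the PI and AP3 libraries were used, and the control library itself was not analysed here.

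The PI list held 1852 peaks and the AP3 list 1524, and in each library the highest score lay at the gene that encodes the tagged protein. The highest AP3 score is also entered at the gene emb1967 (AT3G54350). Every score given here is the authors' own Poisson score of a peak. It has no stated normalization between libraries, so it is read within a list, against median peak scores of 88.1 (PI) and 58.6 (AP3). The lowest scores in the lists were 25.3 (PI) and 26.6 (AP3), and a site under the authors' threshold would not be listed. Read numbers were not analysed, so the depth is unknown. With 1 library per factor there is no replicate error, no test between PI and AP3 was made, and counts describe these libraries. A position of a peak is described by the window of the authors' table that holds its score: the gene itself, 3 windows of 1000 bp upstream of it or 1 of 1000 bp downstream. All coordinates are on TAIR10.

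The 7 listed SPL genes make up 70% of the 10 for PI, and the 5 listed genes make up 50% for AP3. Among all 27444 protein-coding genes of the RefSeq table, 8.69% were listed for PI, 7.26% for AP3 and 5.32% for both. Over a list of 17 SPL loci in the genome, the same genes give 7 of 17 for PI (41.2%, exact Clopper-Pearson 95% interval 18.4 to 67.1) and 5 of 17 for AP3 (29.4%, 10.3 to 56.0). The interval covers counting error only. Given how the genes were chosen, these shares are a description and not a test of the family. Of the 7 SPL genes listed for PI, 5 (71.4%) were listed for AP3, against 61.2% of all protein-coding PI targets. All 5 SPL genes listed for AP3 were listed for PI, against 73.3% of all protein-coding AP3 targets. Both lists were made against the same control library.

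**Figure D1:**
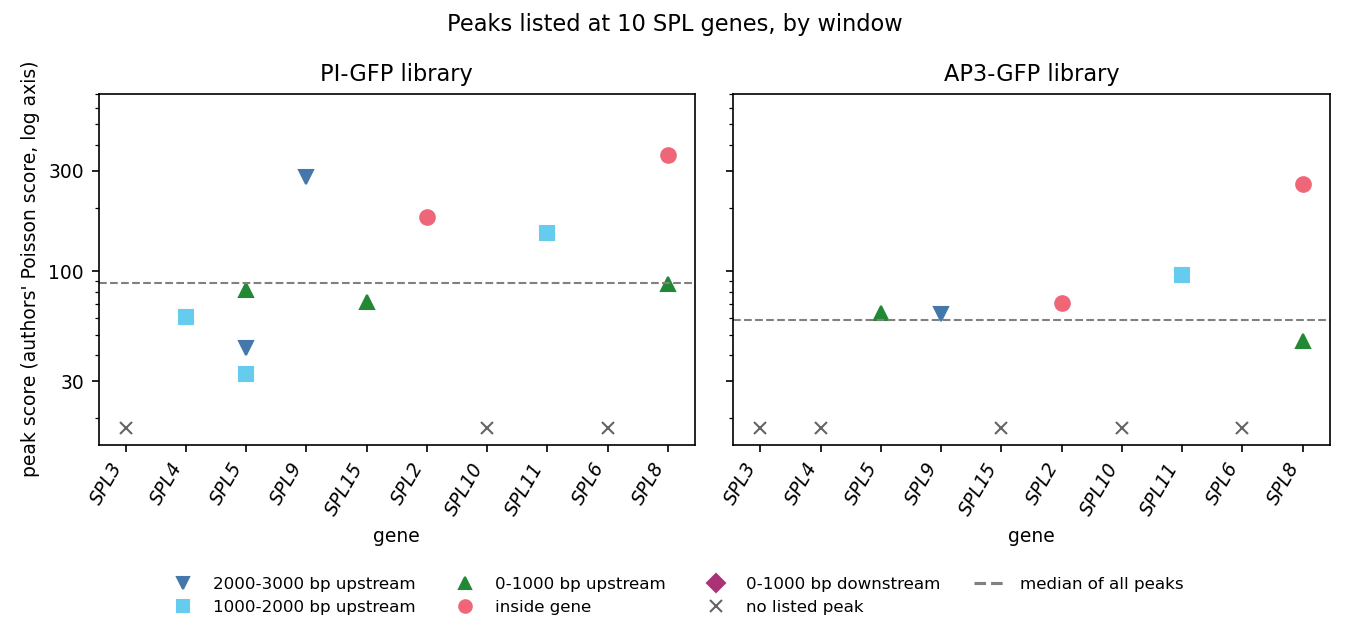
Score of each peak listed at the 10 SPL genes (log axis) in the PI-GFP library (left) and the AP3-GFP library (right). Symbols mark the window that holds the peak, crosses mark genes with no listed peak and the dashed line is the median of all peaks; SPL8 has the highest score in both panels, 356 for PI and 259 for AP3.

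Among the small SPL genes SPL3, SPL4 and SPL5, which encode short proteins that promote flowering and floral meristem identity, PI was listed at SPL4 and SPL5 and AP3 at SPL5. SPL5 (AT3G15270) had 3 PI peaks spread over its 3 upstream windows. The PI scores were 81.7 within 1000 bp upstream, 32.6 at 1000 to 2000 bp and 43.1 at 2000 to 3000 bp. Going upstream, their maxima lay 849 and then 972 bp apart. The nearest of them, on chromosome 3 from 5141637 to 5142048, was higher than 46.6% of the PI peaks.

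Only the nearest of the 3 SPL5 sites was also listed for AP3. There the AP3 score was 63.3 (chromosome 3, 5141847 to 5142099), higher than 53.1% of AP3 peaks, and the AP3 maximum lay 78 bp from the PI maximum. The upstream PI peaks of 32.6 and 43.1 had their closest AP3 peak 604 and 1515 bp away. They sat in score ranges where sharing was low: 18.7% of PI peaks scoring 25.3 to 37.7 and 22.8% of those scoring 37.7 to 46.9 overlapped an AP3 peak. The nearest site also lies inside the neighbouring gene AT3G15260, and the other PI sites lie in windows of AT3G15280, AT3G15290 or AT3G15260, so none belongs to SPL5 alone.

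SPL4 (AT1G53160) had a single PI peak of score 60.6, 1000 to 2000 bp upstream (chromosome 1, 19805180 to 19805431), and no AP3 peak. The peak was 252 bp wide and in no window of another gene. Its closest AP3 peak was 14855 bp away. Among PI peaks of like score, from 56.9 to 71.5, 45.7% overlapped an AP3 peak, so a PI peak without AP3 is common at this level. SPL3 (AT2G33810) was listed for neither factor, and neither were the 2 protein-coding or miRNA genes on each side of it.

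SPL9 and SPL15 are close relatives that drive the change to adult growth and set the rate of leaf initiation, and SPL15 also promotes flowering in shoot meristems. Both were listed for PI. SPL9 (AT2G42200) had the second highest PI score of the 10 genes, 280, at 2000 to 3000 bp upstream. This peak spans chromosome 2, 17584699 to 17585594, and at 896 bp it was the widest PI peak at an SPL gene, where the others were 114 to 515 bp wide and the median of all PI peaks was 335 bp.

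The wide PI peak at SPL9 overlapped 2 separate AP3 peaks, and 33 of the 1025 shared PI peaks overlapped more than 1. The AP3 peak entered in the table for SPL9 had a score of 62.4 (17585246 to 17585464), and its maximum lay 465 bp from the PI maximum. The other AP3 peak had a score of 60.8 (17584776 to 17585024), and its maximum lay 40 bp from that of PI. The authors' table keeps only the highest score of a window, and the lower AP3 peak is entered at the neighbours AT2G42180 and AT2G42190, whose windows hold the PI peak too. With the higher AP3 peak, the ratio of PI to AP3 score at SPL9 had rank 54 from the high end among all 1025 shared pairs. That was the most PI-weighted pair among the SPL genes.

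SPL15 (AT3G57920) had a PI peak of score 71.7 within 1000 bp upstream (chromosome 3, 21446306 to 21446663) and no AP3 peak. The closest AP3 peak was 30789 bp away. As at SPL4, the PI score was below the list's median, and 47.8% of PI peaks scoring 71.7 to 87.7 overlapped an AP3 peak. The same peak lies downstream of AT3G57930 and 2000 to 3000 bp upstream of AT3G57940.

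SPL2, SPL10 and SPL11 are related genes with overlapping roles in the shape of leaves and other lateral organs. Of the 3, SPL2 and SPL11 were listed, each for PI and AP3. SPL2 (AT5G43270) had 1 peak inside the gene, which scored 182 for PI (chromosome 5, 17363244 to 17363740) and 70.6 for AP3 (17363333 to 17363539). The PI peak was 497 bp and the AP3 peak 207 bp wide, and their maxima were 8 bp apart. SPL2 was the only one of the 5 genes listed for both factors whose peaks lay in no window of another gene.

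SPL11 (AT1G27360) had 1 peak at 1000 to 2000 bp upstream. The scores were 151 for PI (chromosome 1, 9499474 to 9499929) and 96.1 for AP3 (9499463 to 9499866), higher than 70.4% and 69.4% of the peaks in their lists. The maxima were 1 bp apart, closer than at any other SPL gene. The peak also falls within 1000 bp upstream of AT1G27350, a nearer window than that of SPL11. SPL10 (AT1G27370) is the next gene beyond SPL11 and was listed for neither factor, so the pair of adjacent SPL genes had 1 bound site between them, on the SPL11 side.

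SPL8 (AT1G02065), which acts in anther and ovule fertility and differs from most of the family in that miR156 does not target it, had the highest score of the 10 genes in both libraries. Inside the gene, the score was 356 for PI (rank 231, chromosome 1, 365252 to 365766) and 259 for AP3 (rank 149, 365256 to 365755). These peaks covered nearly the same bases, 515 bp for PI and 500 bp for AP3, with maxima 30 bp apart. The AP3 peak lay in the highest score decile of its list and the PI peak in the ninth. SPL8 was the only one of the 10 genes with 2 sites listed for both factors.

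Its second site, within 1000 bp upstream, was weaker in both libraries. There the score was 87.45 for PI (364096 to 364496) and 46.45 for AP3 (364213 to 364457), and the maxima were 58 bp apart. From the upstream to the inner site the maxima were 1212 bp apart for PI and 1124 bp for AP3. Both SPL8 sites also lie in the upstream windows of the neighbour AT1G02060, at 1000 to 2000 and 2000 to 3000 bp.

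SPL6 (AT1G69170), the last of the 10, was listed for neither factor. Its direct neighbour is the carpel and nectary gene CRC (AT1G69180), which had a site 2000 to 3000 bp upstream that scored 502 for PI and 153 for AP3. That site is in no window of SPL6, although SPL6 is the adjacent gene.

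**Figure D2:**
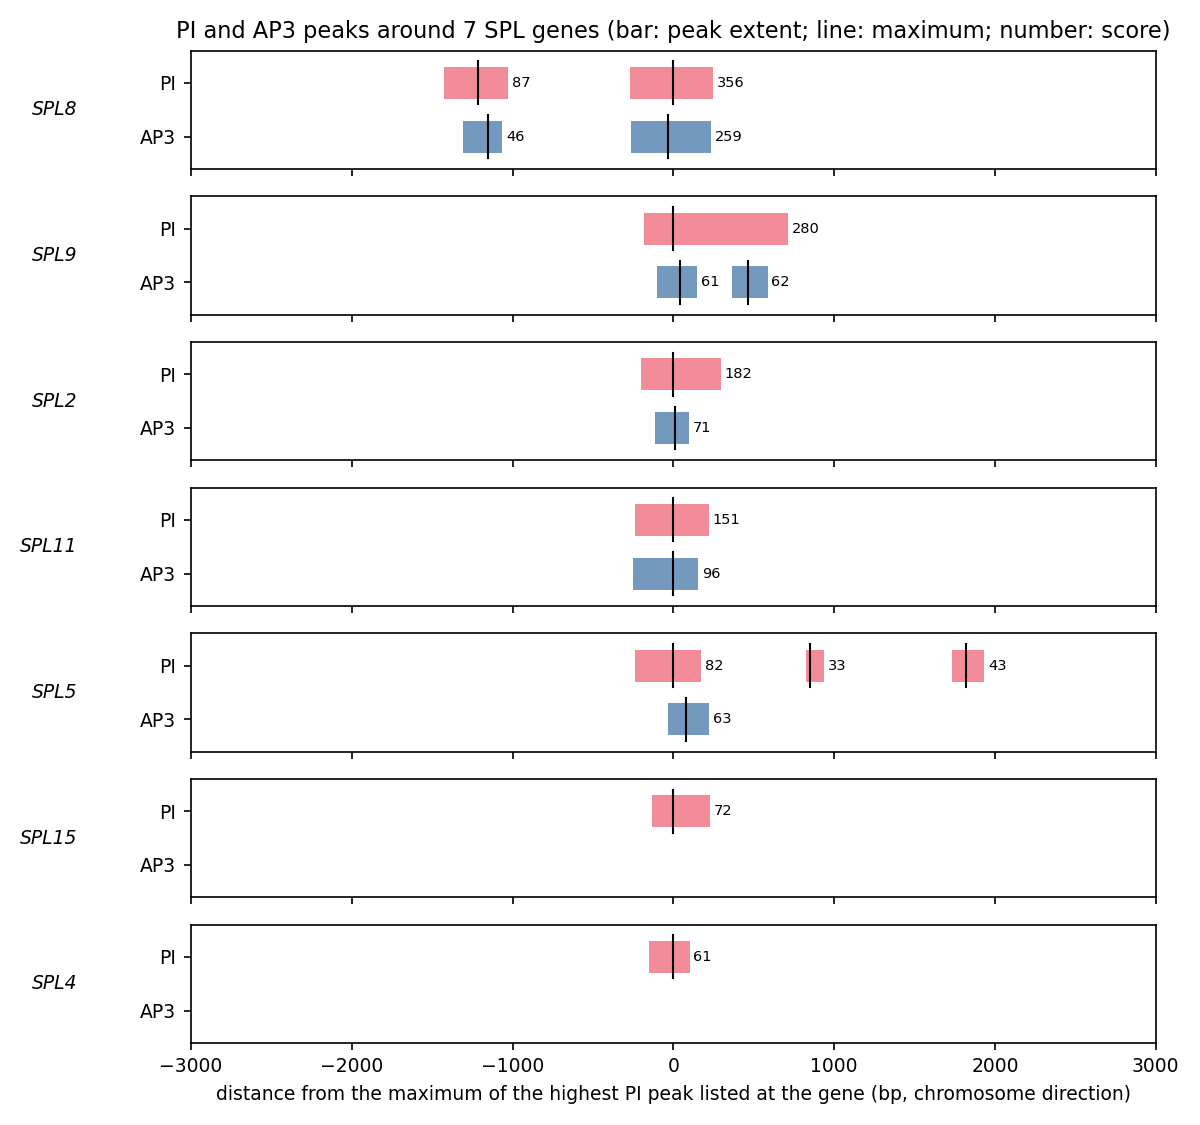
Extent of PI peaks (upper row) and AP3 peaks (lower row) around the 7 listed SPL genes, in bp from the maximum of the highest PI peak at each gene; black lines mark maxima and numbers are scores. SPL8 shows 2 sites in both rows, SPL9 a PI peak of 896 bp over 2 AP3 peaks, SPL5 3 PI peaks and 1 AP3 peak, and SPL15 and SPL4 a PI peak alone.

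Across the 10 PI peaks at SPL genes, 6 overlapped an AP3 peak, and all 6 AP3 peaks listed at these genes overlapped a PI peak. In the whole lists these shares were 55.3% of PI peaks and 69.5% of AP3 peaks. The 4 unshared PI peaks scored 32.6 to 71.7, all below the PI median. The 4 PI peaks above that median, at SPL8, SPL9, SPL2 and SPL11, were all shared. Over the full PI list, 18.7% of the lowest score decile and 95.7% of the highest overlapped an AP3 peak.

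Offsets between maxima at the SPL genes were 1 bp at SPL11, 8 bp at SPL2, 30 and 58 bp at SPL8 and 78 bp at SPL5. At SPL9 the offset was 465 bp to the higher AP3 peak and 40 bp to the lower one. All shared pairs, each with its highest AP3 peak, had a median of 23 bp (quartiles 4 and 66). By rank of the PI to AP3 score ratio, counted from the high end of 1025 pairs, SPL9 was at 54 and SPL2 at 233. The other SPL pairs lay nearer the middle, with SPL8 at 420 (upstream) and 612 (inside), SPL11 at 524 and SPL5 at 657. Only these ranks are used, as the scores of the libraries are not on a common scale.

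**Figure D3:**
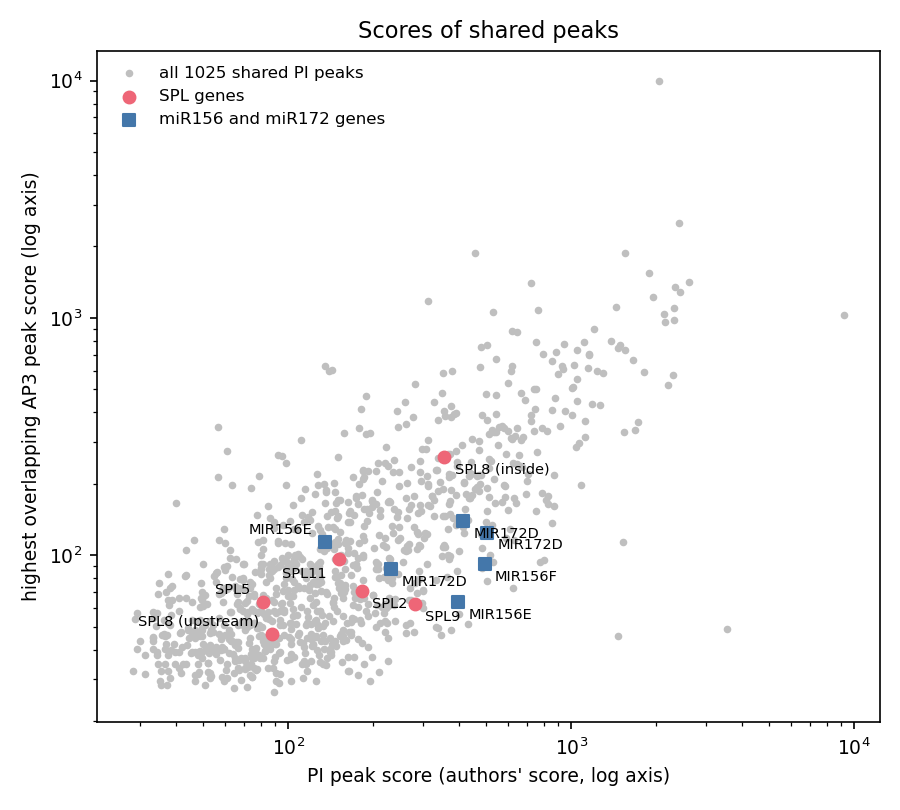
PI score (horizontal, log axis) and score of the highest overlapping AP3 peak (vertical, log axis) for all 1025 shared PI peaks, with SPL sites as circles and miR156 and miR172 gene sites as squares. SPL9, MIR156E at 1000 to 2000 bp upstream and MIR156F lie towards the PI side of the cloud, with ranks of 54, 17 and 27 by the PI to AP3 ratio.

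None of the 7 SPL genes listed for PI or the 5 listed for AP3 had a peak in the 1000 bp downstream window. Of all protein-coding targets, 507 of 2386 for PI and 450 of 1992 for AP3 had a peak there. The highest PI score lay inside the gene at SPL2 and SPL8, within 1000 bp upstream at SPL5 and SPL15, at 1000 to 2000 bp at SPL4 and SPL11, and at 2000 to 3000 bp at SPL9. For AP3 the windows of the 5 genes were the same. Among all protein-coding targets, these windows held the highest score, in that order, for 17.1%, 30.9%, 14.8% and 17.9% of PI targets. For AP3 targets the shares were 21.5%, 27.6%, 14.5% and 15.5%. Peaks in more than 1 window were found at SPL5 and SPL8 for PI and at SPL8 for AP3. Of all protein-coding targets, 12.2% for PI and 10.9% for AP3 had peaks in more than 1 window. Of the 10 PI peaks, 8 were also entered in a window of a gene outside the 10, as were 4 of the 6 AP3 peaks. Only the highest score of a window is kept, so these counts are minimums. Sharing between genes is common in these tables. Among peaks in a gene window whose score occurs once on its chromosome, 56.2% (PI) and 60.4% (AP3) lay in windows of more than 1 gene. Peaks with tied scores were left out of these shares, while some of the peaks at SPL genes have tied scores.

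The remaining 7 SPL loci had no listed peak of either factor. They are the large SPL genes SPL1, SPL7, SPL12 and SPL14 with AT1G76580, which has no SPL name in the RefSeq table, and the pair SPL13A and SPL13B. The large genes are not miR156 targets and have other known roles, such as copper homeostasis for SPL7. SPL13A and SPL13B are near-identical copies, and how reads that match both copies were handled is not given in the sources used here, so their lack of a peak is uncertain. Apart from SPL8, every listed SPL gene is a miR156 target in Arabidopsis. Whether targets and other SPL genes differ in binding was not tested.

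Some of the miRNA genes that act on SPL transcripts were also listed. A list of 12 genes for miR156 and miR157 was looked up. Of these, 5 were listed for PI (MIR156C, MIR156D, MIR156E, MIR156F and MIR157A) and 2 for AP3 (MIR156E and MIR156F), while 7 were listed for neither. MIR156i and MIR156j, the next genes after SPL4 and SPL9, were outside that list and had no listed peak. Among all 326 miRNA genes of the RefSeq table, 7.36% were listed for PI and 4.29% for AP3. How many of the 326 are in the authors' gene models, and whether MIR156i and MIR156j are, is not given in the sources used here.

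MIR156F (AT5G26147) had the highest PI score of these genes. At 2000 to 3000 bp upstream it scored 495 for PI (chromosome 5, 9133145 to 9133528) and 91.6 for AP3 (9133240 to 9133492), with maxima 12 bp apart. MIR156E (AT5G11977) had 2 sites, and the order of their scores was opposite in the libraries. At 1000 to 2000 bp upstream it scored 399.5 for PI (chromosome 5, 3865521 to 3865959) and 63.4 for AP3. At 2000 to 3000 bp it scored 135 for PI and 113 for AP3, the highest AP3 score of these genes. The maxima lay 157 bp apart in the first of these pairs, farther than in 94.4% of shared pairs, and 28 bp apart in the second. By PI to AP3 ratio, the first had rank 17 and the second rank 703 among 1025 pairs, so the ratio differed between sites of 1 gene. Whether that difference exceeds replicate error cannot be told with 1 library per factor. The MIR156F site also lies in a window of AT5G26146. At MIR156E, the site at 1000 to 2000 bp also lies in upstream windows of AT5G11970. The AP3 peak of the other MIR156E site lies 1000 to 2000 bp upstream of AT5G11970, a nearer window than that of MIR156E. For PI that window of AT5G11970 holds the score of 399.5, and a lower PI peak in it would not be entered.

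The PI peaks without AP3 at miR156 and miR157 genes were the lower ones, as at the SPL genes. They scored 55.3 at MIR156C, 38.8 at MIR156D and 64.8 at MIR157A, all below the PI median, and the MIR157A score, held by 4 peaks of its chromosome, was placed by locus order. The MIR156D peak also lies within 1000 bp upstream of AT5G10946. MIR156A and MIR156B, and 5 more genes of this group, were listed for neither factor.

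**Figure D4:**
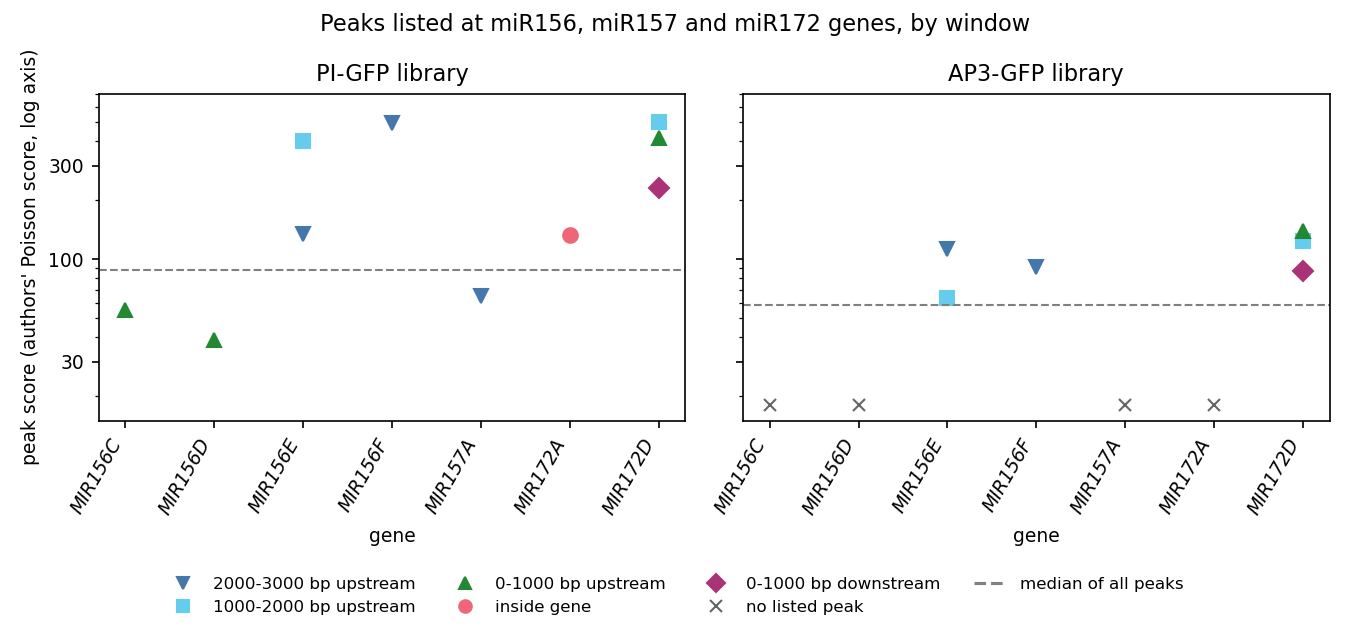
Score of each peak (log axis) at the miR156, miR157 and miR172 genes listed in at least 1 table, in the PI-GFP library (left) and the AP3-GFP library (right), with symbols for the window, crosses for no listed peak and a dashed line at the median of all peaks. MIR156E, MIR156F and MIR172D have peaks in both libraries, and the other 4 genes in PI alone.

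SPL9 and SPL15 are known to activate MIR172B, and miR172 lowers the output of AP2-type genes, several of which repress flowering. Of the 5 miR172 genes, 2 were listed for PI and 1 for AP3, beside 7.36% (PI) and 4.29% (AP3) of all 326 miRNA genes. MIR172D (AT3G55512) had 3 sites, and all 3 were bound by both factors. At 1000 to 2000 bp upstream the score was 503 for PI (chromosome 3, 20585667 to 20586216) and 125 for AP3, within 1000 bp upstream 416 for PI and 139 for AP3, and downstream 231 for PI and 87.2 for AP3. The maxima of the 2 factors lay 14, 111 and 13 bp apart at these sites. The downstream site also lies 2000 to 3000 bp upstream of RTFL7 (AT3G55515). MIR172A (AT2G28056) had a PI peak of 132 listed inside the gene and no AP3 peak. That peak also lies 2000 to 3000 bp upstream of AT2G28050. MIR172B, MIR172C and MIR172E were listed for neither.

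The AP2-type targets of miR172 were listed in 4 of 6 cases for PI (AP2, TOE1, TOE3 and SMZ) and 3 for AP3 (AP2, TOE3 and SMZ), beside the 8.69% (PI) and 7.26% (AP3) of all protein-coding genes. SMZ (AT3G54990) had 2 shared sites. At 2000 to 3000 bp upstream it scored 300.3 for PI and 59.8 for AP3, with maxima at the same base. At the site nearer the gene it scored 86.1 for PI, listed within 1000 bp upstream, and 79.9 for AP3, listed inside the gene, with maxima 46 bp apart. The farther SMZ site also lies 2000 to 3000 bp upstream of TON1A (AT3G55000). TOE3 (AT5G67180) had its higher PI peak, of 434, at 2000 to 3000 bp upstream with no AP3 peak on it, the closest being 783 bp away. This unshared peak lay in the highest PI score decile, unlike the unshared PI peaks at the SPL genes. It was not alone in scoring above the PI median, as unshared PI peaks at MIR172A, AP1, SOC1 and AGL42 did too. The TOE3 site at 1000 to 2000 bp upstream was shared, with 430.1 for PI and 141 for AP3. TOE1 (AT2G28550) had a PI peak of 71.7 alone. TOE2 and SNZ were not listed.

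Of 9 genes known as targets of SPL proteins, 5 were listed for PI (LFY, AP1, FUL, SOC1 and AGL42) and 4 for AP3 (LFY, AP1, FUL and SOC1), again beside 8.69% and 7.26% of all protein-coding genes. The highest scores in this list were at SOC1 (1199 for PI and 902 for AP3, rank 32 and rank 20), FUL (528 for PI and 1062 for AP3, rank 131 and rank 15) and AP1 (870 for PI and 219 for AP3, rank 58 and rank 185). PI peaks with no AP3 peak on them scored 181 and 54.4 at AGL42, 154 and 126 at AP1, and 135 and 44.6 at SOC1. The floral meristem gene LFY (AT5G61850), which SPL3 activates, had lower scores than SOC1, FUL and AP1, with a peak of both factors in each of its 3 upstream windows. From the farthest window to the nearest, the PI scores were 60.6, 163 and 135 and the AP3 scores 30.5, 32.4 and 51.9. The AP3 score of 30.5 belonged to 12 peaks of the chromosome and was placed by locus order. At the nearest site the maxima of the 2 factors fell on the same base. All 3 sites also lie in upstream windows of GUT1 (AT5G61840), the farthest of them in a nearer window than that of LFY. FT, DFR, TRY and TCL1 were listed for neither factor.

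**Figure D5:**
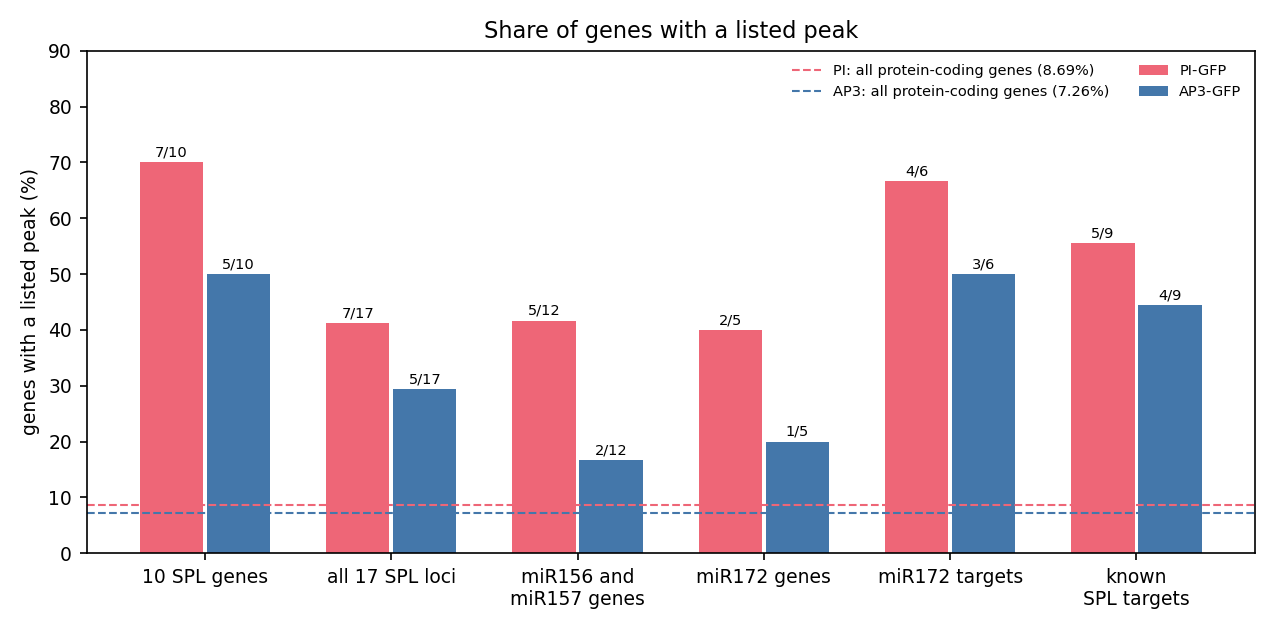
Percent of genes with a listed peak for PI (left bar of each pair) and AP3 (right bar) in the 10 SPL genes, all 17 SPL loci, and the lists of miR156 and miR157 genes, miR172 genes, miR172 targets and known SPL targets; numbers above bars are listed genes over all genes. Dashed lines mark the share of all protein-coding genes, 8.69% for PI and 7.26% for AP3. The share of all miRNA genes, 7.36% for PI and 4.29% for AP3, is not drawn. The lists hold 5 to 17 genes each and were chosen with earlier results known.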

How the data were processed

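Chromatin from flowers of the PI-GFP and AP3-GFP lines was sequenced in 1 library each. Reads were handled with BWA 0.6.1 and SAMtools on the TAIR10 build, per the submitters' processing notes. The series' design sets both against 1 negative control. Neither the labels nor the headers name a peak caller, a score threshold or an annotation release. The authors deposited peak lists with a score called Poisson, per the file headers, and gene tables with the highest score in 5 windows. Genes with no peak are not in these tables.

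A table score was tied to a peak by chromosome and identical score. Where several peaks of a chromosome shared the score, the peak within 500000 bp of the median position of the 10 nearest loci by locus number was taken; among loci with 1 candidate, 98.1% (PI) and 96.2% (AP3) met that distance. This placed PI peaks of SPL4, SPL15, MIR157A, SOC1 and AGL42, and AP3 peaks of SPL11, MIR156E, MIR156F, SMZ and LFY. Peaks were shared from 1 bp of overlap, and a shared PI peak was paired with its highest AP3 peak. Names came from RefSeq (TAIR10.1), and neighbours from the order of its gene start positions. RefSeq positions were not used to place peaks. The placing of scores and the overlap of peaks were tested on simulated data with evenly spaced loci and no peak shared between loci. That setting is simpler than the real lists, so it cannot show how placing works with uneven spacing. Python 3.11.15, pandas 2.3.3 and scipy 1.17.1 were used.

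The members and the gene lists were chosen with earlier results of these data known. Named were the 10 SPL genes, other SPL loci, listed genes of the pathway lists and genes whose windows hold an SPL peak. Genes named as not listed, CRC and genes that share a window with a peak of the pathway lists were chosen after the values were seen.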

Additional observations from a re-analysis of the deposited data

How the results depend on the processing

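Of 33 alternatives over 7 counts, 19 left the count within 1.5 times. The counts over 17 SPL loci repeat those over the 10 genes, as the other loci have no listed peak, so they are not separate results. Limiting windows to the gene and 1000 bp upstream left 4 of the 10 SPL genes for PI, 3 for AP3 and 3 for both, with the same 4 and 3 over all 17 SPL loci, since SPL4, SPL9 and SPL11 have only peaks farther upstream. Counting a peak only for the gene with it in the nearest window left 4 for PI (SPL2, SPL4, SPL8 and SPL15), 3 for AP3 (SPL2, SPL8 and SPL9) and 2 for both, again 4 and 3 of 17. Without scores below the list's median, 4 remained for PI, of 10 and of 17. With a reciprocal overlap of 50%, 3 of 10 PI peaks and 3 of 6 AP3 peaks at SPL genes were shared, against 6 and 6. Dropping the downstream window, or PI peaks beyond the highest 1524, changed no count of genes. A search for CArG boxes was not run. No paired analysis was possible because each factor has 1 library. Depth is unknown, which limits what an unlisted gene shows.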
